A study of Mus musculus with 5 samples.

Results

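Peroxisome assembly and peroxisomal lipid oxidation were followed through 38 genes, chosen by the known role of their proteins, of 18820 genes that the arrays measured with a row of their own. They were 25 enzymes and membrane transport proteins and 13 *Pex* genes, whose products (peroxins) build the organelle. A value was had for 37 of them. *Acot8*, a peroxisomal thioesterase, was carried only by 2 rows that also named *Snx21*, and no level is given for it. Liver RNA came from 3 adult C57BL/6 mice injected with CSF1-Fc, a fusion of pig colony-stimulating factor 1 with an antibody Fc region that drives macrophage growth, and from 2 adult C57BL/6 mice injected with phosphate-buffered saline (PBS). Injections were subcutaneous, once a day for 4 days, and the livers were taken on day 5. The sample titles name neither a transgene nor a sex, and the paper injected males and females, some with a reporter transgene. Each array held the whole liver RNA of 1 mouse, so that *p* values measure the spread between these mice.

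Peroxisomes are organelles bounded by a single membrane that shorten very long-chain and branched fatty acids and bile acid precursors by beta-oxidation, remove single carbons from phytanic acid by alpha-oxidation, and break down the hydrogen peroxide that their oxidases make. Their enzymes are made in the cytosol and brought in by receptors of the *Pex* family, while other peroxins insert membrane proteins or divide the organelle. In rodent liver many of these genes are targets of the nuclear receptor PPAR alpha, encoded by *Ppara*, and fibrate drugs that activate it make hepatocyte peroxisomes multiply.

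Values are log2 of the deposited normalized intensity, a brightness that depends on the probes of each row, so levels were compared between mice and not between genes. The array medians lay between 31.1 and 33 on the linear scale in CSF1-Fc livers and at 32.2 and 32.1 in PBS livers. Correlations of log2 values were 0.983 to 0.990 within CSF1-Fc, 0.991 within PBS and 0.960 to 0.973 across the groups. All 26 measured macrophage markers of 27 listed were higher after CSF1-Fc (median log2 fold change 2.42), and their summed linear intensity was 57500, 58000 and 54600 in CSF1-Fc livers, against 12900 and 11400 in PBS livers. The largest of these rises were those of *Cd68* (2.87), *Tyrobp* (2.80), *Msr1* (2.76) and *Fcer1g* (2.75), and no listed marker was at 0 on any array. The hepatocyte markers had a median log2 fold change of -0.45. *Alb*, *Ttr* and *Apoa1*, bright in both groups, were at 0.03, -0.01 and 0.01, while 7 of the 10 measured had every CSF1-Fc value below both PBS values (7 lower at an unadjusted *p* under 0.05), among them *Tat* (-0.93), *Cps1* (-0.62) and *Hnf4a* (-0.48). That arrangement was found for 29.3% of all genes. It was found for 1678 of 4354 genes at a mean log2 of 8 or more, a brightness that all 10 markers had. By adjusted *p*, 0 of these markers were higher and 1 was lower, *G6pc* (glucose-6-phosphatase, a call that ended without CSF1-Fc replicate 1 or either PBS mouse), and the sum over the list was 45300, 44500 and 50800 in CSF1-Fc livers and 57400 and 61500 in PBS livers.

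Peroxisomal transcripts that passed the test were, with 1 exception, lower in CSF1-Fc livers. Of 37 members, 19 were lower, 1 was higher and 17 did not pass the test (limma, Benjamini-Hochberg adjusted *p* under 0.05 over all rows). Over all genes, 3.95% were lower and 8.34% were higher by the same rule. Every CSF1-Fc value lay below both PBS values for 33 members, an arrangement found for 29.3% of all genes, and above both for *Abcd2* alone, an arrangement found for 18.2% of all genes. The median log2 fold change was -0.74 over the members and -0.08 over all genes. In bulk tissue, fewer cells of a type and less RNA per cell cannot be told apart, and the macrophage markers above rose in the same livers, where their part in the falls was not tested. The count of 19 rests on few mice: 4 members were lower when CSF1-Fc replicate 1 was left out, 3 for PBS replicate 1 and 1 for PBS replicate 2. It was 7 with arrays centred on liver secreted proteins and 2 with no moderation of the variance. *Acaa1b*, *Pecr*, *Acaa1a* and *Pex11a* had the lowest adjusted *p* values of the members.

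**Figure D1:**
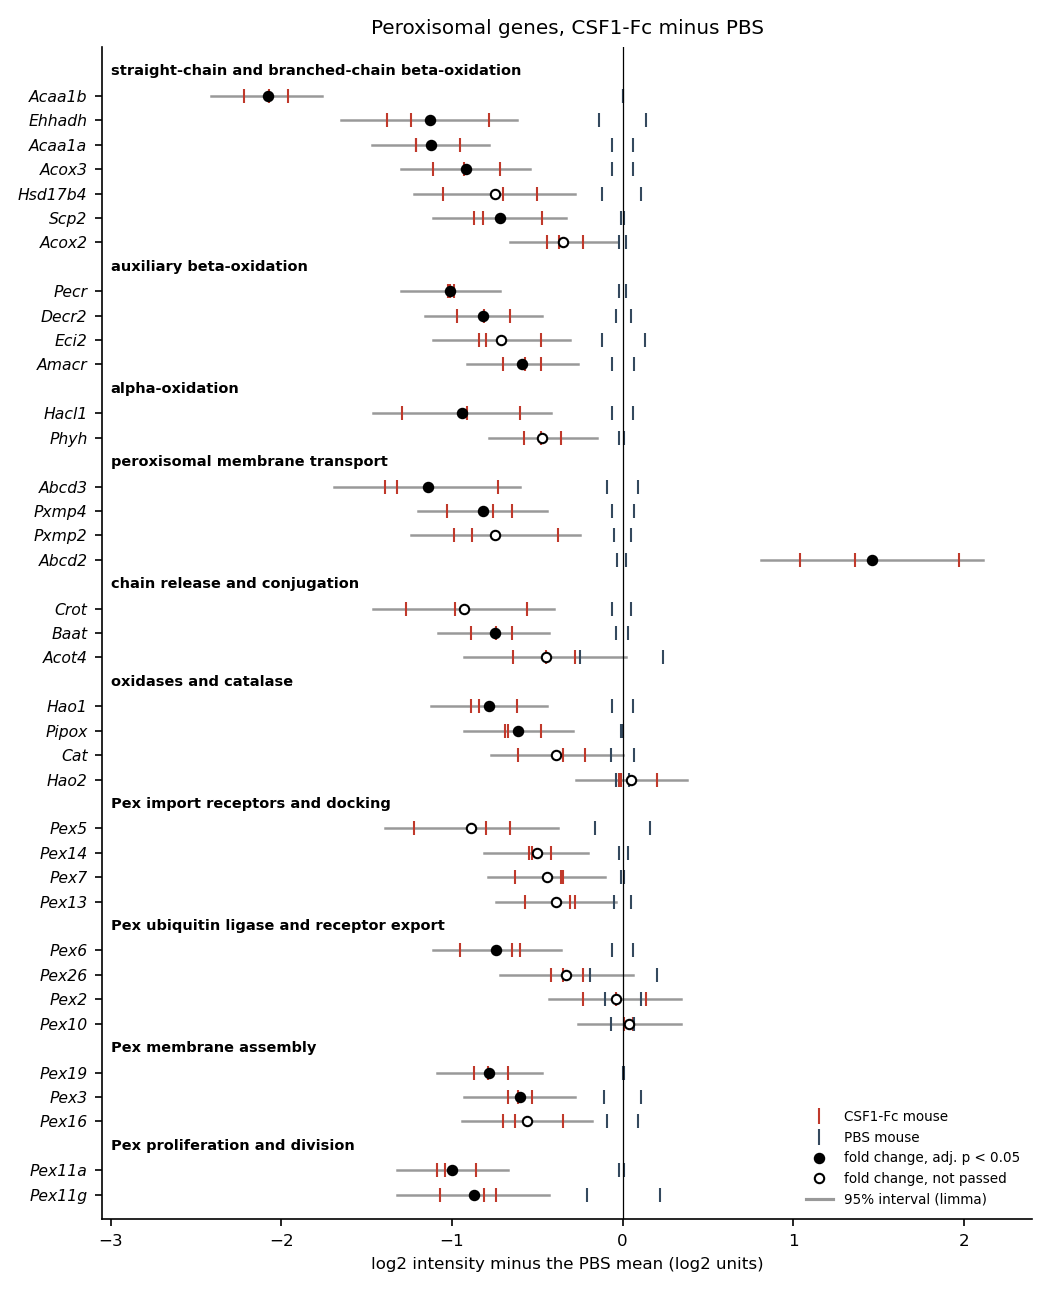
Log2 intensity of each peroxisomal gene minus its mean in PBS livers (log2 units), by role. Short red and blue lines are single CSF1-Fc and PBS mice, circles the fitted log2 fold change (filled where the adjusted p was under 0.05) and grey lines its 95% interval from limma. Most red lines lie left of the blue ones, *Acaa1b* is farthest left at -2.08, and *Abcd2* alone lies to the right of PBS, at 1.46.

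The beta-oxidation cycle held the deepest fall. Of its 7 enzymes, all measured, 5 were lower, 0 were higher and 2 did not pass the test, with a median log2 fold change of -0.92. *Acaa1b* encodes a thiolase, the last step of the cycle, and was at log2 intensities of 7.97, 7.71 and 7.86 in CSF1-Fc livers, against 9.93 and 9.93 in PBS livers. The groups lay far apart, and the fold change of -2.08 (standard error 0.14, adjusted *p* = 0.00045) left 23.6% of the PBS intensity. Its close paralogue *Acaa1a* was at 7.59, 7.59 and 7.85 in CSF1-Fc livers and 8.74 and 8.86 in PBS livers. All CSF1-Fc mice were again below both controls, with a smaller fold change of -1.12 (standard error 0.14, adjusted *p* = 0.00551). The change of *Acaa1b* exceeded that of *Acaa1a* by -0.96 log2 units, with SDs of this difference between mice of 0.19 in CSF1-Fc (n = 3) and 0.08 in PBS (n = 2). An exact two-sided permutation test over the mice gave *p* = 0.2 (0.2 after adjustment over 2 gene pairs), the smallest value that 3 mice against 2 can give. The paralogues are so alike that part of the signal of each row may come from the other gene.

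*Ehhadh*, the bifunctional enzyme that hydrates and then oxidises the straight-chain intermediates, was at 9.28, 9.14 and 9.74 in CSF1-Fc livers and at 10.38 and 10.66 in PBS livers. CSF1-Fc replicate 3 came nearest to PBS without overlap, and the fold change was -1.13 (standard error 0.21, adjusted *p* = 0.0235). *Acox3*, an oxidase that opens the cycle for branched-chain substrates, was at 7.74, 7.56 and 7.95 after CSF1-Fc and at 8.73 and 8.61 after PBS. The groups did not overlap (-0.92, standard error 0.16, adjusted *p* = 0.0178), whereas a second, dim row of *Acox3* did (-0.26, adjusted *p* = 0.438). *Scp2*, which yields a thiolase for branched chains and a sterol carrier protein, was at 11.37, 11.32 and 11.72 in CSF1-Fc livers and at 12.20 and 12.18 in PBS livers. All CSF1-Fc values were lower, by -0.72 (standard error 0.16, adjusted *p* = 0.0456). *Hsd17b4*, the second bifunctional enzyme, had a log2 fold change of -0.75 (95% interval -1.22 to -0.28, adjusted *p* = 0.0706), and *Acox2*, the oxidase of bile acid precursors, one of -0.35 (95% interval -0.66 to -0.03, adjusted *p* = 0.175). For both, the CSF1-Fc values lay below both PBS values, and neither passed the test. Only *Acaa1b* stayed called in all 15 alternative fits (adjusted *p* up to 0.0396). Calls of *Acox3*, *Ehhadh* and *Scp2* ended without CSF1-Fc replicate 1 (adjusted *p* 0.0796 to 0.160) and without PBS replicate 1 (0.0854 to 0.211), those 3 and *Acaa1a* without PBS replicate 2 (0.0666 to 0.231), and that of *Scp2* without CSF1-Fc replicate 2 (0.0884).

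The DNA before the starts of the 2 thiolase genes is shown because both were among the members with the lowest adjusted *p* values. That of *Pecr*, also among them, is not printed. Whether these letters bear on the falls was not tested. RefSeq promoter windows (GRCm38.p6, 250 bases before to 50 after a gene's start) were held for 31 of the 38 members, with none for *Hsd17b4*, *Amacr*, *Abcd2*, *Pxmp2*, *Baat*, *Pex2* and *Pex19*. Windows were searched on both strands for the CCAAT box (CCAAT, or ATTGG on the other strand), the GC box (GGGCGG, or CCGCCC) and the direct repeat that PPAR alpha binds with its partner receptor. The 250 bases before the start are printed 5′ to 3′ on the strand of the gene, with CCAAT and GC boxes in capitals, for *Acaa1b* at chr9:119157094-119157343 (minus strand) and *Acaa1a* at chr9:119341044-119341293 (plus strand).
Acaa1b: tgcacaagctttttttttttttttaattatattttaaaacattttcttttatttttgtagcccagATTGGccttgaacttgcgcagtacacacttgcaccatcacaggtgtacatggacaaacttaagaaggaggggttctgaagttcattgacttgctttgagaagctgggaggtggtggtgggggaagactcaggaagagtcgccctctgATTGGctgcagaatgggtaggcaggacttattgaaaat
Acaa1a: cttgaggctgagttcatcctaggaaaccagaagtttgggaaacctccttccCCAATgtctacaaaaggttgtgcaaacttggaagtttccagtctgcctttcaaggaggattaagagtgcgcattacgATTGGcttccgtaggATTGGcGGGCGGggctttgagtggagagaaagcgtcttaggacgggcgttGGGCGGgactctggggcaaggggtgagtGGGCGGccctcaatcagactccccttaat
The *Acaa1b* stretch held 2 CCAAT boxes and 0 GC boxes and was 41.6% G and C. The *Acaa1a* stretch held 3 of each and was 53.6% G and C. Over the 31 members with a window, 15 held a CCAAT box and 21 a GC box, against 41.1% and 38.2% of all genes with a window.

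The PPAR alpha repeat in its consensus form (AGGTCA, any 1 base, then AGGTCA again) was found in 0 of the 31 members' windows and in 0.0481% of genes. A looser form (GGNCA, any 1 base, then AGGNCA, read on either strand, with N for any base) was found in 3 members and in 0.932% of genes. They were *Acox2* and the thioesterase gene *Acot4*, which did not pass the test, and *Pex11g*, which was lower. The same letters of *Acox2* were also listed at bases -236 to -225 from a start, and this listing is not printed. The surroundings of 1 match of each gene are printed on the strand of the gene with the match in capitals. They are those of *Pex11g* at chr8:3467687-3467748 (minus strand), *Acot4* at chr12:84038341-84038378 (plus strand) and *Acox2* at chr14:8259039-8259100 (minus strand).
Pex11g: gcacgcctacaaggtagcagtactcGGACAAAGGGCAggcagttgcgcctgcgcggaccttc
Acot4: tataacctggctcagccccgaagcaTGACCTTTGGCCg
Acox2: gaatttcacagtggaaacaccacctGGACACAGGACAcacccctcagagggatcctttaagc
A match describes the letters of a window and no more, and a window without one says nothing of sites elsewhere in the gene.

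The auxiliary enzymes, which turn unsaturated or branched chains into substrates of the cycle, were lower for 3 of 4 genes, with a median of -0.76. *Pecr*, a reductase of the double bond at the second carbon, was at 9.86, 9.88 and 9.85 in CSF1-Fc livers, against 10.85 and 10.89 in PBS livers. The 3 treated mice were nearly equal, and the fold change of -1.01 (standard error 0.12, adjusted *p* = 0.00374) corresponded to 49.6% of the PBS intensity. *Decr2*, a reductase of polyunsaturated chains, was at 10.26, 10.42 and 10.57 after CSF1-Fc and at 11.28 and 11.19 after PBS. The groups were well separated (-0.82, standard error 0.14, adjusted *p* = 0.0191). *Amacr*, the racemase that prepares branched chains and bile acid precursors, was at 10.67, 10.54 and 10.76 in CSF1-Fc livers and at 11.18 and 11.31 in PBS livers. The fall was among the smaller ones called (-0.59, standard error 0.14, adjusted *p* = 0.0484), with no overlap. *Eci2*, an isomerase of unsaturated chains, had a log2 fold change of -0.71 (95% interval -1.11 to -0.31, adjusted *p* = 0.0523) with separate groups. Calls of *Decr2* and *Amacr* ended without CSF1-Fc replicate 1 (adjusted *p* 0.0798 to 0.154) and without PBS replicate 1 (0.136 to 0.173), that of *Amacr* without CSF1-Fc replicate 2 (0.0949), and those of *Pecr*, *Decr2* and *Amacr* without PBS replicate 2 (0.0535 to 0.304).

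Alpha-oxidation has 2 members. *Hacl1*, the lyase that cleaves the hydroxylated chain, was at 10.54, 10.16 and 10.85 in CSF1-Fc livers and at 11.39 and 11.51 in PBS livers. CSF1-Fc replicate 2 was lowest and replicate 3 highest, all below PBS, with a fold change of -0.94 (standard error 0.22, adjusted *p* = 0.0477). *Phyh*, the hydroxylase before it, had a log2 fold change of -0.47 (95% interval -0.78 to -0.15, adjusted *p* = 0.0882) and did not pass the test. The *Hacl1* call ended when CSF1-Fc replicate 1 (adjusted *p* = 0.144), CSF1-Fc replicate 2 (0.0522), PBS replicate 1 (0.174) or PBS replicate 2 (0.258) was left out.

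Membrane transport moved in both directions. *Abcd3*, the ATP-driven importer of branched-chain and bile acid precursor CoA esters, was at 9.94, 9.87 and 10.53 in CSF1-Fc livers, against 11.17 and 11.35 in PBS livers. CSF1-Fc replicate 3 was the highest of the treated mice and still below both controls (-1.14, standard error 0.23, adjusted *p* = 0.0286). *Abcd2*, a related importer of very long-chain and polyunsaturated esters, was at 8.24, 7.92 and 8.85 in CSF1-Fc livers and at 6.90 and 6.85 in PBS livers. It was the only member called higher, by 1.46 (standard error 0.27, adjusted *p* = 0.0231), at 275% of the PBS intensity, and replicate 3 was again the highest. The change of *Abcd2* exceeded that of *Abcd3* by 2.60 log2 units, with SDs between mice of 0.15 in CSF1-Fc and 0.16 in PBS. The same exact two-sided permutation test gave *p* = 0.2 (0.2 after adjustment over 2 pairs), again the smallest value it can give. *Pxmp4*, a small membrane protein, was at 10.55, 10.66 and 10.28 in CSF1-Fc livers and at 11.25 and 11.38 in PBS livers. Here replicate 3 was the lowest treated mouse, and the fold change was -0.82 (standard error 0.16, adjusted *p* = 0.0269). *Pxmp2*, a membrane channel, had a log2 fold change of -0.75 (95% interval -1.24 to -0.25, adjusted *p* = 0.0824). Calls of *Abcd2*, *Abcd3* and *Pxmp4* all ended without CSF1-Fc replicate 1 (adjusted *p* 0.0787 to 0.109), PBS replicate 1 (0.116 to 0.121) or PBS replicate 2 (0.147 to 0.200), and that of *Abcd3* ended without CSF1-Fc replicate 2 (0.0550).

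**Figure D2:**
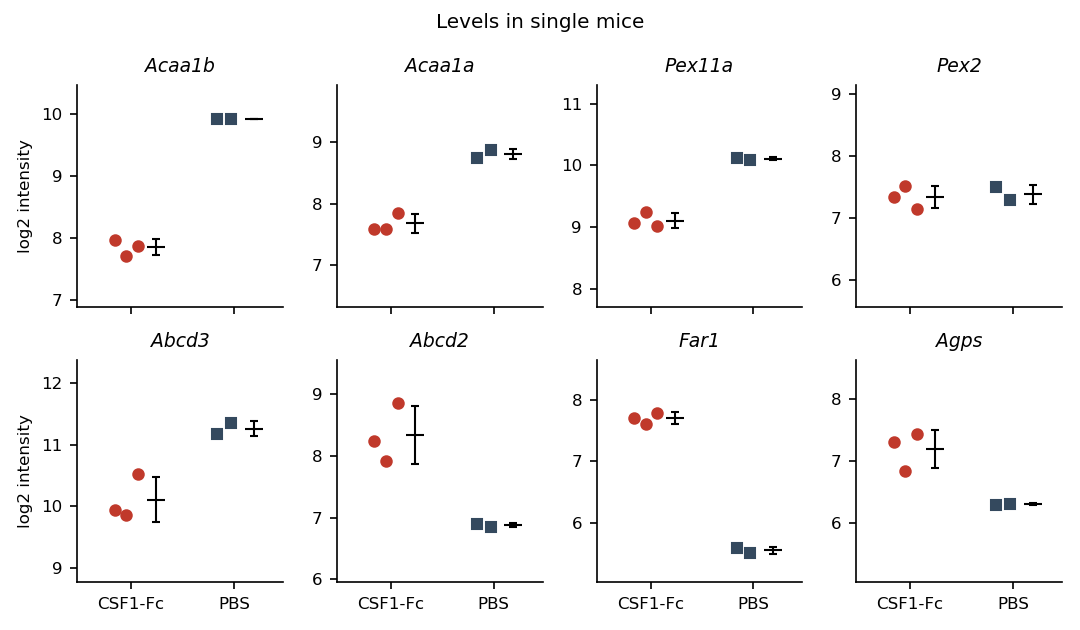
Log2 intensity in single mice for 8 peroxisomal genes, CSF1-Fc (red circles) left of PBS (blue squares); the horizontal line and bar beside each group are the mean and SD (n = 3 and n = 2), and every panel spans the same number of log2 units. The thiolase and importer genes of each pair are shown side by side, with *Pex2*, whose groups overlap at 7.34, 7.52 and 7.15 against 7.49 and 7.28, and the ether lipid genes *Far1* and *Agps*.

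Release and conjugation of the shortened chains were covered by 3 measured members, of which 1 was lower. *Baat*, which joins bile acids to taurine or glycine, was at 9.02, 8.87 and 9.11 in CSF1-Fc livers and at 9.72 and 9.79 in PBS livers. The groups did not overlap (-0.75, standard error 0.14, adjusted *p* = 0.0206). *Crot*, the carnitine transferase that lets medium chains leave the organelle, had a log2 fold change of -0.93 (95% interval -1.46 to -0.40, adjusted *p* = 0.0517), a larger fall than that of *Baat* with a wider spread. *Acot4*, a thioesterase with close paralogues whose probes may share signal, was at -0.45 (95% interval -0.93 to 0.02, adjusted *p* = 0.237). The *Baat* call ended without CSF1-Fc replicate 1 (adjusted *p* = 0.0856), PBS replicate 1 (0.115) and PBS replicate 2 (0.171).

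Of the oxidases and catalase, 2 of 4 genes were lower. *Hao1*, the glycolate oxidase of hepatocytes, was at 9.66, 9.61 and 9.88 in CSF1-Fc livers and at 10.56 and 10.44 in PBS livers. All 3 treated mice were lower (-0.78, standard error 0.14, adjusted *p* = 0.0214). *Pipox*, an oxidase of pipecolic acid and sarcosine, was at 10.26, 10.24 and 10.45 after CSF1-Fc and at 10.93 and 10.92 after PBS. It was lower by a smaller margin and again without overlap (-0.61, standard error 0.13, adjusted *p* = 0.0397). *Cat*, catalase itself, was at 12.58, 12.32 and 12.71 in CSF1-Fc livers and at 12.86 and 13 in PBS livers, a log2 fold change of -0.39 (95% interval -0.77 to 0.00, adjusted *p* = 0.209). Its groups were separate, but the change did not pass the test in any of the 15 alternatives. *Hao2*, an oxidase of long-chain hydroxy acids, was dim on all 5 arrays, between 2.94 and 3.18, and its groups overlapped. Calls of *Hao1* and *Pipox* ended without CSF1-Fc replicate 1 (adjusted *p* 0.0956 to 0.150), PBS replicate 1 (0.152 to 0.202) and PBS replicate 2 (0.123 to 0.231), and that of *Pipox* without CSF1-Fc replicate 2 (0.0820).

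Among the 13 *Pex* genes, 5 were lower, 0 were higher and 8 did not pass the test, with a median log2 fold change of -0.56. Both genes of the division group fell. *Pex11a*, a membrane-shaping peroxin that fibrates are known to induce in rodents, was at 9.07, 9.25 and 9.02 in CSF1-Fc livers, against 10.12 and 10.09 in PBS livers. The groups lay far apart (-1.0, standard error 0.13, adjusted *p* = 0.00674), at 50.2% of the PBS intensity. *Pex11g*, another member of its family, was at 6.53, 6.79 and 6.86 after CSF1-Fc and at 7.39 and 7.82 after PBS. The controls differed from each other by more than for other *Pex* genes, without overlap (-0.87, standard error 0.18, adjusted *p* = 0.0366). Both calls ended without PBS replicate 1 (adjusted *p* 0.0626 to 0.0662) and without PBS replicate 2 (0.0681 to 0.242), and that of *Pex11g* without CSF1-Fc replicate 1 (0.125) or replicate 2 (0.0620). Because *Pex11a* was the most clearly changed assembly gene, the 250 bases before its start at chr7:79743132-79743381 (minus strand) are given on the strand of the gene; they held 0 CCAAT boxes and 0 GC boxes, so nothing is in capitals, and the 1 GC box of its window began 44 bases after the start.
Pex11a: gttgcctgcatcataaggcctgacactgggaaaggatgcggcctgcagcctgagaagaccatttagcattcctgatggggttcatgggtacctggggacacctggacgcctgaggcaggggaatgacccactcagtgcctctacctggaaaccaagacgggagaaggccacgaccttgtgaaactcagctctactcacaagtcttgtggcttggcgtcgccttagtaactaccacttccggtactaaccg

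Membrane assembly depends on *Pex19*, a chaperone that carries membrane proteins, and on its docking partners *Pex3* and *Pex16*. *Pex19* was at 9.05, 8.97 and 9.17 in CSF1-Fc livers and at 9.84 and 9.85 in PBS livers. The groups were separate with little spread within either (-0.78, standard error 0.13, adjusted *p* = 0.0149). *Pex3* was at 8.39, 8.33 and 8.47 after CSF1-Fc and at 9.11 and 8.89 after PBS. It was also lower in all treated mice (-0.60, standard error 0.14, adjusted *p* = 0.0442). *Pex16* had a log2 fold change of -0.56 (95% interval -0.94 to -0.18, adjusted *p* = 0.0892) with separate groups. Calls of *Pex19* and *Pex3* ended without CSF1-Fc replicate 1 (adjusted *p* 0.0742 to 0.153), PBS replicate 1 (0.109 to 0.259) and PBS replicate 2 (0.130 to 0.148), and that of *Pex3* without CSF1-Fc replicate 2 (0.0898) and without replicate 3 (0.0526).

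None of the 4 genes of cargo import passed the test, although the CSF1-Fc values of each lay below both PBS values. *Pex13*, a docking protein of the import pore, was at 8.37, 8.40 and 8.11 in CSF1-Fc livers and at 8.73 and 8.63 in PBS livers. The gap between the groups was small (-0.39, standard error 0.15, adjusted *p* = 0.176). The receptors *Pex5* and *Pex7*, which bind the import signals of matrix enzymes, had log2 fold changes of -0.89 (95% interval -1.39 to -0.38, adjusted *p* = 0.0517) and -0.44 (95% interval -0.79 to -0.10, adjusted *p* = 0.125). *Pex14*, the docking partner of *Pex13*, was at -0.50 (95% interval -0.81 to -0.20, adjusted *p* = 0.0601).

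The ubiquitin ligase and export genes, which recycle the receptors, were the least changed. *Pex6*, an ATPase that pulls receptors out of the membrane, was at 7.90, 7.60 and 7.95 in CSF1-Fc livers and at 8.49 and 8.61 in PBS livers. It was the 1 gene of these 4 that was lower (-0.74, standard error 0.16, adjusted *p* = 0.0375), with no overlap. Its membrane anchor *Pex26* was at -0.33 (95% interval -0.72 to 0.06, adjusted *p* = 0.285). The ligase subunits *Pex2* and *Pex10* were at -0.04 (95% interval -0.43 to 0.34, adjusted *p* = 0.909) and 0.04 (95% interval -0.26 to 0.34, adjusted *p* = 0.885), and their groups overlapped. The sign of both turned with the scaling: centred on liver secreted proteins *Pex2* was at 0.15, and after quantile normalization *Pex10* was at -0.02. The *Pex6* call ended without CSF1-Fc replicate 1 (adjusted *p* = 0.107), CSF1-Fc replicate 2 (0.0563), PBS replicate 1 (0.150) and PBS replicate 2 (0.245).

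Setting the enzymes against the assembly factors compares how far the transcripts of each class fell in whole liver RNA. Peroxisomes themselves were not measured, and the enzyme class also holds membrane transport proteins. The 24 measured enzyme and transport genes had 14 lower, 1 higher and 9 not passed, a median log2 fold change of -0.75, and 22 with all CSF1-Fc values below PBS. The 13 *Pex* genes had 5 lower and 11 so arranged. On single arrays the median shift from the PBS mean was -0.83, -0.84 and -0.61 for enzymes and -0.62, -0.63 and -0.57 for *Pex* genes in CSF1-Fc livers. In PBS livers these shifts were -0.03 and 0.03 for enzymes and 0.02 and -0.02 for *Pex* genes. The enzyme shift minus the *Pex* shift, which scaling a whole array leaves as it is, was -0.21, -0.21 and -0.05 in CSF1-Fc livers and -0.04 and 0.04 in PBS livers. CSF1-Fc replicate 3 thus lay next to PBS replicate 1 in this difference, and without replicate 3 the difference of the fitted medians was -0.30 in place of -0.19; it was not tested, since the members were chosen with results of these data known.

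The rows of the 2 classes differed in brightness, with a median of the mean log2 intensity of 10.15 for enzymes and 8.27 for *Pex* genes, and bright rows passed the test more often. At a mean log2 of 8 or more, a threshold chosen after seeing the data, 9.58% of all genes were lower and 9.39% were higher. Among members that bright, 14 of 20 enzymes (median -0.80) and 4 of 8 *Pex* genes (median -0.58) were lower. These counts rest on few mice, and without PBS replicate 2 they were 1 and 0, without PBS replicate 1 they were 3 and 0, and without CSF1-Fc replicate 1 they were 3 and 1. Without CSF1-Fc replicate 2 there were 2 such *Pex* genes.

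**Figure D3:**
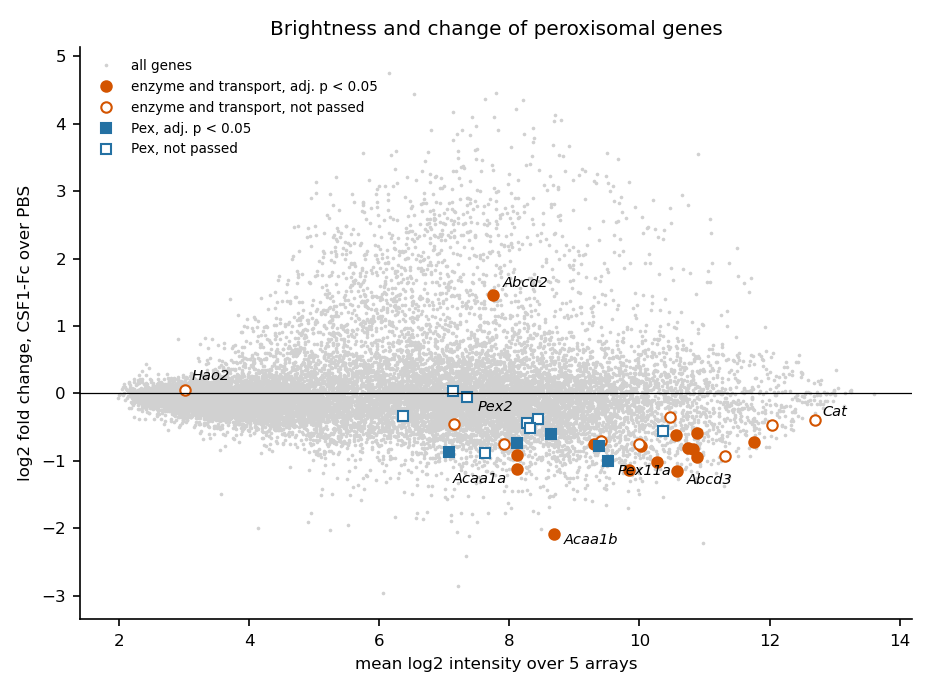
Mean log2 intensity over 5 arrays (horizontal) against log2 fold change, CSF1-Fc over PBS (vertical), for all 18820 genes in grey, enzyme and transport members in orange and *Pex* members in blue, filled where the adjusted p was under 0.05. Apart from *Abcd2*, the filled members lie below 0 and mostly at a mean log2 of 8 or more, *Acaa1b* being the lowest.

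The treated mice did not deviate alike in the 2 classes. Among the 24 enzymes, CSF1-Fc replicate 3 was the highest of the treated livers for 18 and replicate 2 the lowest for 18. Among the 13 *Pex* genes, replicates 1, 2 and 3 were highest for 2, 6 and 5 genes. The order of the enzymes was not particular to them. Replicate 3 was highest for 25 and replicate 2 lowest for 24 of 31 liver secreted protein genes, and the hepatocyte marker sum and the array median were also highest in replicate 3 and lowest in replicate 2. Over all genes at a mean log2 of 8 or more, replicate 3 was highest for 47.1% and replicate 2 lowest for 49.8%. Over all genes these shares were 33.9% and 37.8%, and there replicate 3 was lowest for more genes than replicate 2, at 43.6%. Whether these orders are linked was not tested.

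Peroxisomal genes outside the 38 moved less uniformly. Of 33 measured enzymes and transporters of 39 listed, 13 were lower, 2 were higher and 18 did not pass the test, with a median of -0.50. *Ephx2*, an epoxide hydrolase, was at 10.10, 9.94 and 10.25 in CSF1-Fc livers and at 11.22 and 11.36 in PBS livers (-1.19, standard error 0.15, adjusted *p* = 0.00471). The aspartate oxidase *Ddo* was at -1.16 (adjusted *p* = 0.0138) and the membrane protein *Mpv17l* at -1.12 (adjusted *p* = 0.00647), both with all treated mice below PBS. The 2 genes called higher belong to ether lipid synthesis, which starts in the peroxisome. *Far1*, the reductase that supplies its fatty alcohol, was at 7.70, 7.60 and 7.79 in CSF1-Fc livers, against 5.60 and 5.52 in PBS livers. The groups lay far apart (2.14, standard error 0.13, adjusted *p* = 0.000434), and the call held in all alternatives run. *Agps*, which inserts that alcohol, was at 7.30, 6.84 and 7.43 after CSF1-Fc and at 6.29 and 6.31 after PBS (0.89, standard error 0.20, adjusted *p* = 0.0435). *Gnpat*, the acyltransferase before it, was at -0.21 (95% interval -0.52 to 0.10, adjusted *p* = 0.392); *Agps* and *Gnpat* were picked after their values were seen. Of 9 measured of 12 further assembly and division genes, 0 were lower and 0 were higher by limma (2 and 1 at an unadjusted *p* under 0.05), the lowest *p* values being those of the lipid tether *Acbd5* (-1.23, adjusted *p* = 0.0868) and of *Tmem135* (-0.61, adjusted *p* = 0.140). Without CSF1-Fc replicate 3, 2 of these assembly genes were lower. The 13 lower enzymes numbered 4 when CSF1-Fc replicate 1 was left out, 8 for CSF1-Fc replicate 2, 1 for PBS replicate 1 and 0 for PBS replicate 2, and the *Agps* call ended without any of CSF1-Fc replicates 1 and 3 or the PBS mice (0.0667 to 0.218).

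The PPAR alpha pathway was also followed outside the peroxisome. Of 26 measured of 30 listed, 13 were lower, 2 were higher (the fatty acid transporter *Cd36* and the mitochondrial thioesterase *Acot2*) and 11 did not pass the test, with a median of -0.82. *Cyp4a14*, a fatty acid omega-hydroxylase, was at 4.89, 4.46 and 5.27 in CSF1-Fc livers and at 7.68 and 8.0 in PBS livers. All treated mice were far below the controls (-2.96, standard error 0.25, adjusted *p* = 0.000985), as they were for its relative *Cyp4a31* (-2.86, adjusted *p* = 0.000737). The pantetheinase *Vnn1* (-1.75, adjusted *p* = 0.00882) and the lipoprotein lipase inhibitor *Angptl4* (-1.68, adjusted *p* = 0.0266) were next. *Ppara* itself was at 8.81, 9.17 and 9.44 in CSF1-Fc livers and at 9.90 and 10.39 in PBS livers. The groups did not overlap, but the fold change did not pass the test (-1.01, standard error 0.24, adjusted *p* = 0.0511). Counts of lower genes were 7 without CSF1-Fc replicate 1, 5 without PBS replicate 1 and 3 without PBS replicate 2. Transcripts of 31 liver secreted proteins gave 0 higher and 0 lower by limma (0 and 5 at an unadjusted *p* under 0.05), with a median of -0.19. The fitted change was below 0 for 28 of them. Every CSF1-Fc value lay below both PBS values for 18 and above both for 1. Of 4354 genes at a mean log2 of 8 or more, 1678 and 952 were so arranged. The lowest *p* values were those of *F9* (-0.91, limma adjusted *p* = 0.098) and *Itih1* (-0.76, adjusted *p* = 0.187).

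**Figure D4:**
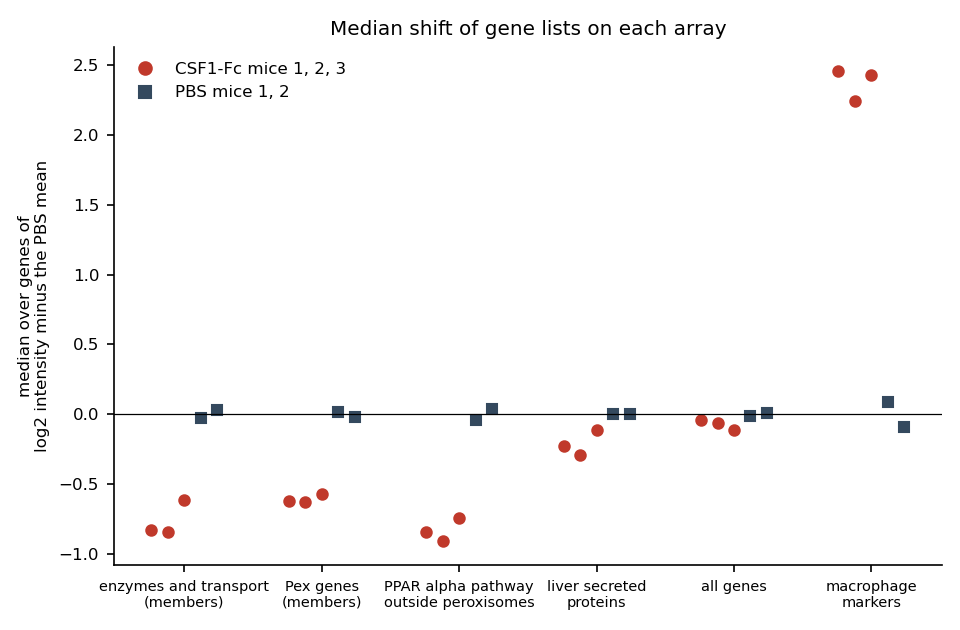
Median over the genes of a list of log2 intensity minus the PBS mean (vertical, log2 units) on each array, CSF1-Fc mice as red circles and PBS mice as blue squares, for 6 gene lists. Enzymes, *Pex* genes and PPAR alpha pathway genes lie below 0 in every CSF1-Fc mouse, at -0.57 or lower, secreted protein genes at -0.23, -0.29 and -0.11, and macrophage markers above 2.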

How the data were processed

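Liver RNA of each mouse was hybridized to 1 Affymetrix Mouse Gene 1.1 ST array. The deposited values are linear intensities normalized by the authors, one per transcript row; the submitters' notes name Affymetrix Expression Console 1.1, and how background was corrected and arrays were normalized was not given in the sources used here, so compression or scaling of the values cannot be checked. Of 35556 rows, 21218 carried 1 gene symbol in GEO's platform annotation, 1881 several and 12457 are unnamed here. Each gene was read from its row with the highest mean over the 5 arrays.

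From the deposited intensities, log2 values with no pseudocount and no filter entered a linear model of the group means in limma 3.58.1 under R 4.3.3 (lmFit and eBayes), p-values being adjusted across all rows (Benjamini-Hochberg) and called at an adjusted p under 0.05. Fold changes are CSF1-Fc over PBS. The members and the gene lists were chosen with earlier results of these data known, so lists are described by counts and medians and were not tested. Members past the threshold were given with every value, as was the brightest member of a role group with none; from other lists up to 4 of the largest called changes were named, or the 2 lowest p. Changes were compared within the 2 gene pairs by exact permutation tests over the mice. Motifs were sought in RefSeq promoter windows. The fit was tested on simulated data. Alternatives were quantile normalization, centring on liver secreted proteins, a filter on dim rows, rows of 1 symbol, the mean over rows, trended and robust or no moderation, array weights (computed with statmod 1.5.0), a block for the replicate number, a pseudocount of 16, and each mouse left out. Arrays have no read depth. The small number of mice limits the precision, and with 1 array per mouse the noise of an array cannot be told apart from the spread between mice.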

Additional observations from a re-analysis of the deposited data

How the results depend on the processing

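No called member changed sign in any of the 15 alternatives, and the member medians stayed below 0. Leaving out 1 mouse at a time gave 1 to 16 enzymes lower (14 with all mice), 0 to 5 *Pex* genes lower (5) and 0 to 1 member higher (1). *Pex* genes lower numbered 1 when CSF1-Fc replicate 1 was left out, 2 for CSF1-Fc replicate 2 and 0 for either PBS mouse. Enzymes lower numbered 3 without CSF1-Fc replicate 1, 3 without PBS replicate 1 and 1 without PBS replicate 2. *Abcd2*, the higher member, was lost in those 3 fits. The leave-one-out medians ran from -0.83 to -0.74 for enzymes, from -0.65 to -0.50 for *Pex* genes and from -0.30 to -0.12 for their difference. Rows called fell with them, to 1079 higher and 134 lower without PBS replicate 2, against 2052 and 1133 with all mice, and fewer mice leave fewer residual degrees of freedom.

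Centring on liver secreted proteins moved the median of all genes by about as much as the secreted list's own shift, to 0.12, and left 6 enzymes and 1 *Pex* gene lower, with medians of -0.56 and -0.37. Rows that rose were then 82.1% of those called, against 64.4% as reported, 47.3% with array weights and 81.2% with no moderation. No moderation left 2 enzymes and 0 *Pex* genes lower and 0 higher (550 rows higher and 127 lower in all). On rows naming a single gene, as with array weights, 8 *Pex* genes were lower, and the *Pex* median was -0.61 with array weights and -0.59 after quantile normalization. Array weights called 3416 rows higher and 3805 lower. The cause of these shifts was not tested.

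The replicate numbers are shared by both groups, and the deviations of same-numbered mice from their group means correlated at -0.07 and -0.25. With 2 PBS mice these deviations mirror each other, so the check cannot decide whether the numbers pair the mice. With the replicate block 8 enzymes and 2 *Pex* genes were lower, the *Pex* median was -0.53 and the difference of medians -0.30.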

Other observations

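Other cell types were followed through marker lists in the same livers. Of 11 neutrophil markers measured, 8 were higher in CSF1-Fc livers and 0 were lower, led by *Retnlg* and *S100a8*, and their summed intensity was 2940, 2560 and 2320 in CSF1-Fc livers, against 2140 and 348 in PBS livers. The sum in PBS replicate 1 was carried by *Lcn2*, an acute phase gene that hepatocytes also express, at 1860 of it, and without *Lcn2* (left out after its values were seen) the sums were 1960, 1940 and 1670 in CSF1-Fc livers and 279 and 197 in PBS livers. Of 9 B and T cell markers, 4 were higher and 0 were lower, with sums of 539, 549 and 497 in CSF1-Fc livers and 257 and 254 in PBS livers. The 4 were the B cell genes *Cd79b* (log2 fold change 1.89), *Cd79a* (1.58) and *Ms4a1* (1.15) and the T cell gene *Cd3g* (1.45). The markers *Cd3d* (0.01), *Cd3e* (0.25), *Cd8a* (0.16), *Cd2* (0.47) and *Cd4* (-0.51) did not pass the test. Of 10 sinusoidal endothelial markers, *Cdh5*, a junction cadherin, was higher (1.38, limma adjusted p = 0.0087) and *Clec4g*, a lectin of sinusoidal cells, was lower (-0.74, adjusted p = 0.0176). Both calls ended without either PBS mouse or with no moderation, and that of *Clec4g* also without CSF1-Fc replicate 1. The *Clec4g* call ended too with centring on liver secreted proteins (limma adjusted p = 0.103), the mean over its rows (0.129) and the replicate block. Over all genes 8.34% were higher and 3.95% were lower, and at a mean log2 of 8 or more 9.39% and 9.58%. The part of these cells in the peroxisomal values was not tested.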
